A study of Mus musculus with 103 samples.

Results

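C-type lectin receptors are surface proteins with which macrophages bind sugars and lipids of microbes and of damaged host cells. The 9 genes Clec4a2, Clec4d, Clec4e, Clec4n, Clec5a, Clec7a, Clec10a, Clec12a and Mrc1 were followed through 24 h of KLA (Kdo2-lipid A, the part of bacterial lipopolysaccharide that activates Toll-like receptor 4). They were chosen by symbol, and each was taken from the transcript with the highest mean level among the 24014 gene symbols of the table. All 9 were found, and all 9 were among the 10605 genes with at least 1 RPKM in at least 2 libraries (RPKM is the number of reads per 1000 bases of transcript and per 1000000 reads of the library). Clec10a reached 1 RPKM in 3 of the 6 libraries, namely KLA 1 h and both untreated libraries, and the other 8 genes did so in all 6.

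The cells were thioglycollate-elicited peritoneal macrophages of male C57BL/6 mice aged 6 to 8 weeks, collected 3 to 4 days after the injection and kept overnight in 0.5% serum. Poly(A) RNA came from macrophages given 100 ng/ml KLA for 1, 6, 12 or 24 h, from untreated macrophages that served for the times up to 12 h, and from untreated macrophages for 24 h. Each of these 6 conditions had 1 library, so no difference between them has a replicate check and no p-value is given. Peaks of SREBP1 (sterol regulatory element binding protein 1) and of LXR (liver X receptor) came from ChIP-seq (sequencing of DNA pulled down with antibodies to the factor) of the same kind of macrophage given 1 µM GW3965, a synthetic LXR agonist, with no KLA in the labels. The labels tie no library to a named animal, do not say how many mice were pooled, and give no genetic change in any of these groups. KLA 1, 6 and 12 h were set against the same untreated library and so are not independent of each other, while KLA 24 h was set against its own.

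Within the family, Clec4e (Mincle, which binds mycobacterial cord factor), Clec4d (MCL), Clec4n (Dectin-2, which binds fungal mannans) and Clec5a (MDL-1) have short tails and signal through partner adaptors, whereas Clec7a (Dectin-1, which binds beta-glucan of fungal walls) carries its own activating tail motif. Clec4a2 (DCIR) and Clec12a (MICL) carry inhibitory tail motifs. Clec10a (MGL1, which binds galactose-type sugars) and Mrc1 (the mannose receptor, CD206) are uptake receptors that are often used as marks of macrophages exposed to IL-4. Most of the 9 genes lie in a pair of lectin gene clusters on mouse chromosome 6.

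The 9 genes went in opposite directions and by very unequal amounts. After 24 h of KLA 3 of the 9 (Clec4e, Clec4d and Clec5a) were at least 2-fold higher and 4 of the 9 (Mrc1, Clec4a2, Clec7a and Clec10a) at least 2-fold lower than in untreated 24 h macrophages, on the scale of RPKM with 1 added. Among all genes tested at that time 9.98% were at least 2-fold higher and 10.6% at least 2-fold lower. At 12 h 2 genes were higher (Clec4e and Clec5a), beside 8.88% of all genes, and 4 were lower (Clec4a2, Clec7a, Clec10a and Mrc1), beside 16.3%. At 6 h 2 were higher (Clec4e and Clec5a), beside 9.35%, and 4 were lower (Clec4a2, Clec4n, Clec7a and Clec10a), beside 22.4%. Clec10a passed the filter of 1 RPKM only through KLA 1 h and both untreated libraries. The filter thus favoured its lower calls at 6, 12 and 24 h, which give no support of their own. With 3 added to RPKM its log2 ratios at those times were -0.95, -1.08 and -0.91. At 1 h Clec4e was higher, beside 3.65% of all genes, and none of the 9 was lower, beside 4.09%. After 1, 6, 12 and 24 h of KLA the median log2 ratio of the 9 was 0.04, -0.17, -0.19 and 0.46, beside -0.16, -0.46, -0.32 and -0.09 over all genes tested. With the libraries rescaled to those medians Clec4a2 and Clec7a were no longer 2-fold lower at 6 h (log2 ratios of -0.74 and -0.76), nor was Clec7a at 12 h (-0.94), while Clec4d passed 2-fold at 12 h (1.26), and no called gene changed direction. No member differed by 2-fold between the untreated 24 h and the untreated 1-12 h library, where 4.14% of all genes did.

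**Figure D1:**
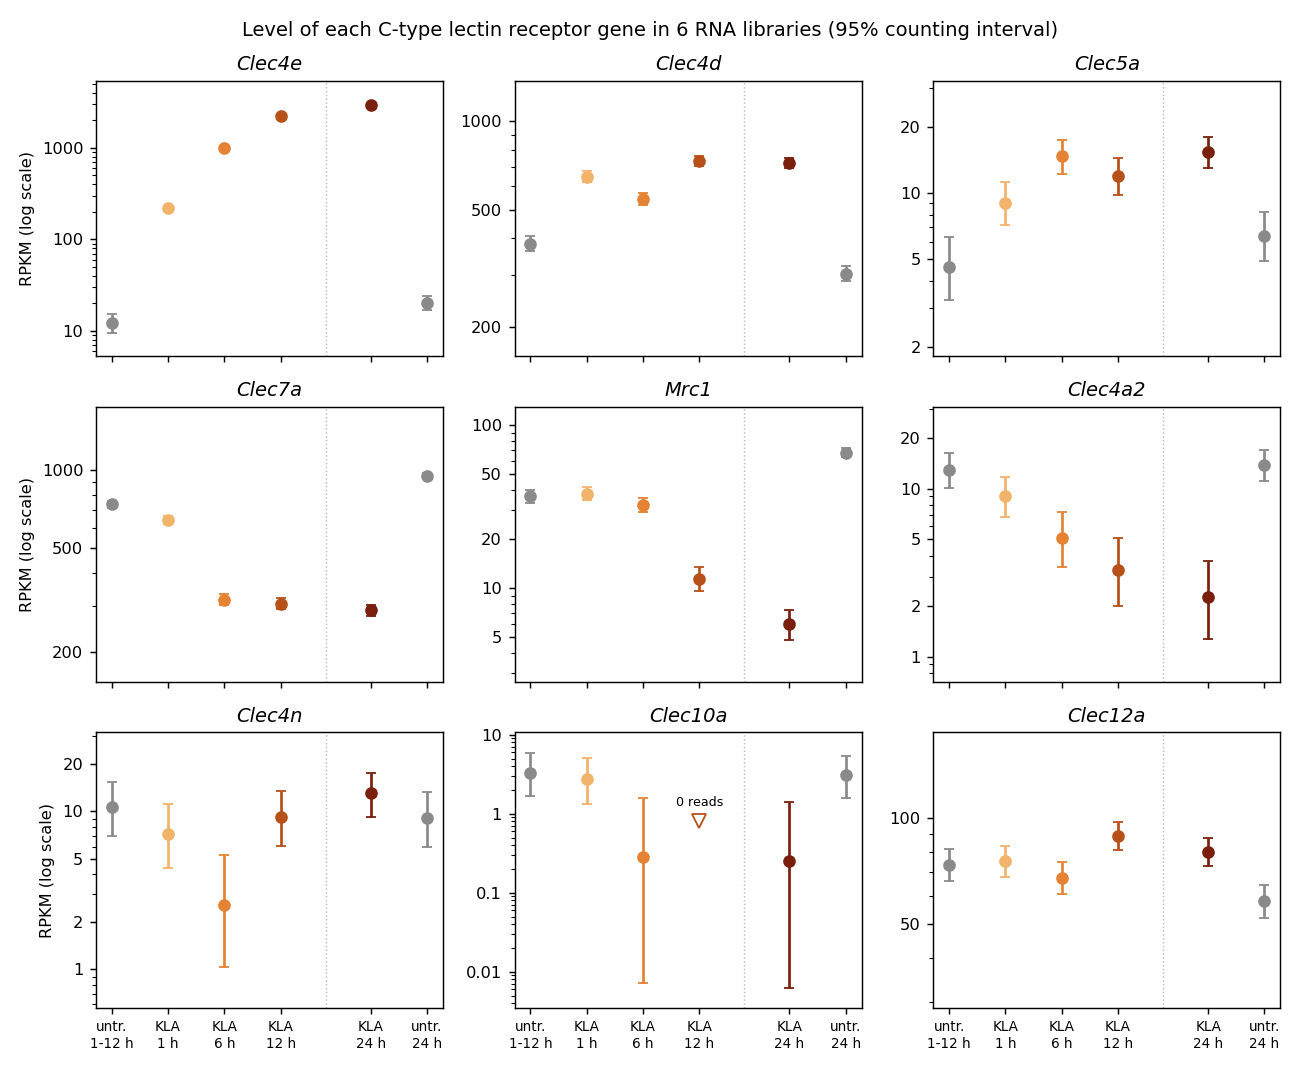
RPKM of each gene (log scale, each panel with its own range) in the untreated library of the times up to 12 h, KLA 1 h, 6 h and 12 h, then KLA 24 h and its untreated library; points are single libraries, bars are 95% Poisson counting intervals, and the open triangle marks the level of 3 reads where 0 were counted. Clec4e climbs through the KLA times to 2932 RPKM, while Mrc1 at KLA 24 h stands at 5.98 RPKM.

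Clec4e had the largest change of the 9. It had 12.2 RPKM in untreated macrophages, 219 RPKM after 1 h of KLA, 991 RPKM after 6 h and 2224 RPKM after 12 h. After 24 h it had 2932 RPKM in KLA macrophages, against 20.1 RPKM in untreated 24 h macrophages. All 4 KLA libraries were above both untreated libraries, and each later KLA library was above the one before it. The plain ratio of RPKM was 17.9 at 1 h (95% interval of the read counts 14.0 to 23.2), 80.9 at 6 h (63.7 to 104), 182 at 12 h (143 to 234) and 146 at 24 h (123 to 175). These intervals, like all below, cover counting error only and say nothing of the spread between cultures. Between KLA times Clec4e was 4.51 times higher at 6 h than at 1 h (4.25 to 4.79) and 2.24 times higher at 12 h than at 6 h (2.18 to 2.31). Clec4e itself was 1.64 times higher in the untreated 24 h than in the untreated 1-12 h library (1.22 to 2.23), so the ratio at 24 h was below that at 12 h although the level at 24 h was above. Among the genes tested it stood 13th from the top at KLA 24 h, where it held 0.855% of all reads assigned to genes, against position 2842 and 0.006% in untreated 24 h macrophages.

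Clec4d, the neighbour of Clec4e and in mouse work its partner in the receptor complex, started high and changed less. It had 383 RPKM in untreated macrophages, 647 RPKM after 1 h, 544 RPKM after 6 h and 732 RPKM after 12 h of KLA. At 24 h the level was 724 RPKM in KLA macrophages, against 303 RPKM in untreated macrophages. Every KLA library was above both untreated libraries. The plain ratio was 1.69 at 1 h (1.57 to 1.82), 1.42 at 6 h (1.32 to 1.53), 1.91 at 12 h (1.78 to 2.06) and 2.39 at 24 h (2.22 to 2.57). Its calls rested on the control. At 24 h the log2 ratio was 1.25 against its own untreated library and 0.92 against the untreated 1-12 h library. Against the untreated 24 h library it was 1.09 at 1 h and 1.27 at 12 h, both past 2-fold, where its own control gave 0.76 and 0.93. Per length, Clec4e was at 0.032 times the level of Clec4d in untreated macrophages (0.0247 to 0.0409), at 0.339 times after 1 h of KLA (0.316 to 0.363) and at 1.82 times after 6 h (1.73 to 1.92). At 24 h it was at 4.05 times the level of Clec4d in KLA macrophages (3.89 to 4.22), against 0.0663 times in untreated macrophages (0.0548 to 0.0795). The order of the neighbours thus turned round between 1 h and 6 h of KLA.

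Clec5a, which in mouse cells pairs with the adaptor DAP12 (Tyrobp), was higher from a low base. It had 4.6 RPKM in untreated macrophages, 9.01 RPKM after 1 h, 14.7 RPKM after 6 h and 12.0 RPKM after 12 h of KLA. After 24 h it had 15.4 RPKM in KLA macrophages, against 6.4 RPKM in untreated macrophages. All 4 KLA libraries were above both untreated libraries, and the 6, 12 and 24 h libraries had overlapping counting intervals. The plain ratio was 1.96 at 1 h (1.32 to 2.96), 3.2 at 6 h (2.22 to 4.73), 2.61 at 12 h (1.79 to 3.88) and 2.4 at 24 h (1.78 to 3.28). At 12 h the call depended on the control, with a log2 ratio of 1.22 against its own untreated library and 0.81 against the untreated 24 h library. With 3 added to RPKM the log2 ratio of Clec5a was 0.98 at 12 h and 0.97 at 24 h, both just short of 2-fold.

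Clec7a was the most abundant of the 9 in both untreated libraries and fell behind after KLA. It had 736 RPKM in untreated macrophages, 642 RPKM after 1 h, 317 RPKM after 6 h and 306 RPKM after 12 h of KLA. At 24 h the level was 289 RPKM in KLA macrophages, against 947 RPKM in untreated macrophages. The 4 KLA libraries were all below both untreated libraries, with most of the difference between 1 h and 6 h. At 1 h the log2 ratio was -0.20, and -0.04 with the libraries rescaled by the median ratio. The plain ratio was 0.873 at 1 h (0.833 to 0.914), 0.43 at 6 h (0.406 to 0.456), 0.416 at 12 h (0.392 to 0.441) and 0.305 at 24 h (0.289 to 0.322). From 6 h to 12 h the ratio was 0.966 (0.903 to 1.03), an interval that holds 1. Even so Clec7a stood at position 193 of the genes tested at KLA 24 h, against 41 in untreated 24 h macrophages.

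Mrc1 was lower late. It had 36.6 RPKM in untreated macrophages, 38.0 RPKM after 1 h, 32.3 RPKM after 6 h and 11.4 RPKM after 12 h of KLA. After 24 h there were 5.98 RPKM in KLA macrophages, against 67.7 RPKM in untreated macrophages. The 1 h and 6 h libraries lay close to the untreated 1-12 h library, and the 12 h and 24 h libraries lay below both untreated ones. The plain ratio was 1.04 at 1 h (0.91 to 1.19), 0.884 at 6 h (0.77 to 1.01), 0.311 at 12 h (0.256 to 0.376) and 0.0882 at 24 h (0.0698 to 0.11). Its untreated libraries differed by 1.85 times (untreated 24 h over untreated 1-12 h, 1.65 to 2.08), so the size of the 24 h difference moves with the control. Against the untreated 1-12 h library the ratio at 24 h was 0.163 (0.128 to 0.207), and against the untreated 24 h library the 6 h ratio was 0.477 (0.424 to 0.537).

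The inhibitory receptors did not move together. Clec4a2 had 13.0 RPKM in untreated macrophages, 9.07 RPKM after 1 h, 5.1 RPKM after 6 h and 3.3 RPKM after 12 h of KLA. At 24 h the level was 2.26 RPKM in KLA macrophages, against 13.9 RPKM in untreated macrophages. Its plain ratio was 0.699 at 1 h (0.481 to 1.01), 0.393 at 6 h (0.247 to 0.61), 0.254 at 12 h (0.146 to 0.422) and 0.163 at 24 h (0.0876 to 0.284). The untreated libraries agreed within counting error (untreated 24 h over untreated 1-12 h 1.07, 0.773 to 1.48), and the ratio was lower at each later time. Between KLA times, the ratio of 12 h over 6 h (0.646, 0.348 to 1.18) and of 24 h over 12 h (0.686, 0.327 to 1.41) had intervals that hold 1. Clec4a2 has close relatives beside it (Clec4a1, Clec4a3 and Clec4b1), and the labels do not say how reads that match several of them were assigned.

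Clec12a stayed near its untreated level. It had 73.3 RPKM in untreated macrophages, 75.2 RPKM after 1 h, 67.6 RPKM after 6 h and 88.9 RPKM after 12 h of KLA. After 24 h it had 80.1 RPKM in KLA macrophages, against 57.9 RPKM in untreated macrophages. The plain ratio was 1.03 at 1 h (0.888 to 1.19), 0.922 at 6 h (0.794 to 1.07), 1.21 at 12 h (1.06 to 1.39) and 1.38 at 24 h (1.2 to 1.6). The upper bound of 1.6 was the highest of the 4 and lay below 2. The untreated libraries differed by 0.791 times (untreated 24 h over untreated 1-12 h, 0.679 to 0.92), so the KLA 24 h level lies above the untreated 24 h but within counting error of the untreated 1-12 h library (ratio 1.09, 0.951 to 1.26).

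Clec4n and Clec10a rested on few reads. Clec4n had 10.6 RPKM (27 reads) in untreated macrophages, 7.22 RPKM after 1 h, 2.56 RPKM (7 reads) after 6 h and 9.21 RPKM after 12 h of KLA. At 24 h it had 13.0 RPKM (40 reads) in KLA macrophages, against 9.04 RPKM (27 reads) in untreated macrophages. The 6 h library was the low one, with a plain ratio of 0.241 (0.0886 to 0.567), and the intervals at 1, 12 and 24 h all held 1. From 6 h to 12 h of KLA Clec4n was 3.6 times higher (1.52 to 9.83). Clec10a had 3.33 RPKM (11 reads) in untreated macrophages, 2.78 RPKM (10 reads) after 1 h and 0.282 RPKM (1 read) after 6 h, and it is listed at 0 after 12 h. At 24 h it had 0.25 RPKM (1 read) in KLA macrophages, against 3.1 RPKM (12 reads) in untreated macrophages. Its ratio was 0.0845 at 6 h (0.00196 to 0.581) and 0.0806 at 24 h (0.00189 to 0.545), so the size was not fixed. Both intervals lay below 1, but the filter favoured low values at these times, so they give no support for the direction.

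**Figure D2:**
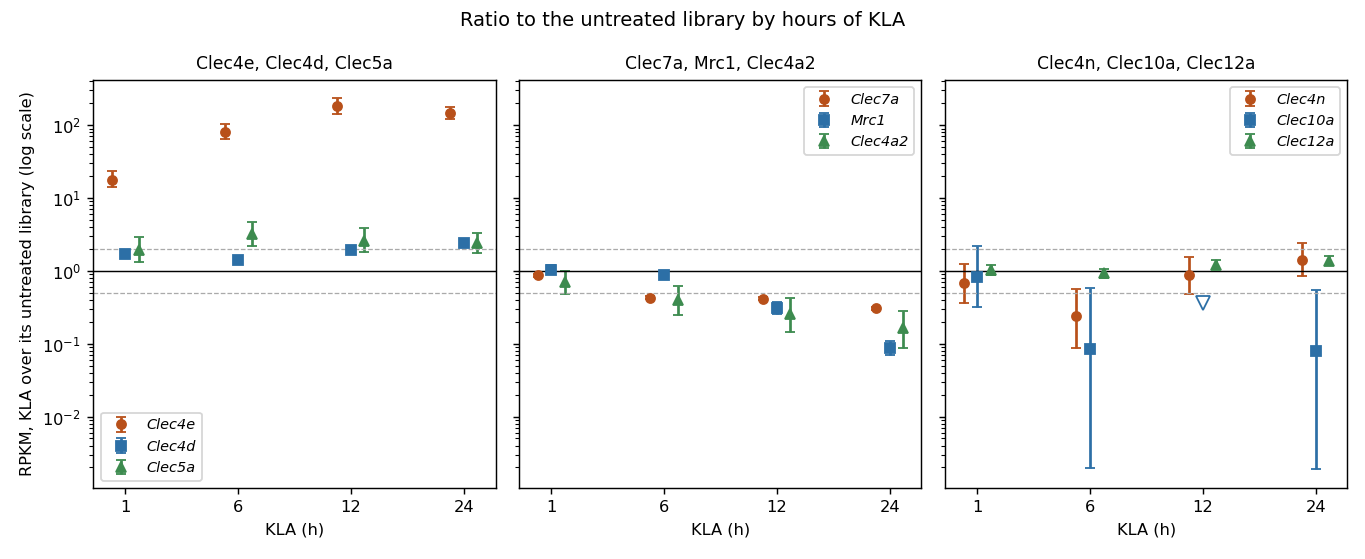
Ratio of RPKM in KLA macrophages over their untreated library (log scale) by hours of KLA, with 95% exact binomial counting intervals and dashed lines at 2-fold; the open triangle is the upper bound where 0 reads were counted. Clec4e lies far above the other genes at every time, and Clec7a, Mrc1 and Clec4a2 lie below 0.5 at 12 h and 24 h.

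The order of the levels changed with KLA. In untreated 1-12 h macrophages it was Clec7a, Clec4d, Clec12a, Mrc1, Clec4a2, Clec4e, Clec4n, Clec5a and Clec10a, and the counting intervals of neighbours overlapped for Clec4a2 and Clec4e, Clec4e and Clec4n, and Clec5a and Clec10a. At KLA 1 h Clec4d and Clec7a shared the top with overlapping intervals. From KLA 6 h on Clec4e, Clec4d, Clec7a and Clec12a held positions 1 to 4 with their intervals apart. At KLA 24 h the order went on with Clec5a, Clec4n, Mrc1, Clec4a2 and Clec10a, and Clec5a overlapped Clec4n and Clec4a2 overlapped Clec10a. In untreated 24 h macrophages the order was Clec7a, Clec4d, Mrc1, Clec12a, Clec4e, Clec4a2, Clec4n, Clec5a and Clec10a, with overlap between Mrc1 and Clec12a and between each neighbouring pair of the last 5.

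Summed over the 9 genes the level was 1272 RPKM in untreated macrophages, 1650 RPKM after 1 h, 1974 RPKM after 6 h and 3386 RPKM after 12 h of KLA. At 24 h it was 4062 RPKM in KLA macrophages, against 1428 RPKM in untreated macrophages. Clec4e made up 72.2% of that sum in KLA 24 h macrophages, against 1.41% in untreated 24 h macrophages. Clec7a made up 7.11% in KLA 24 h macrophages, against 66.3% in untreated 24 h macrophages. The summed level thus passed from mostly Clec7a to mostly Clec4e.

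**Figure D3:**
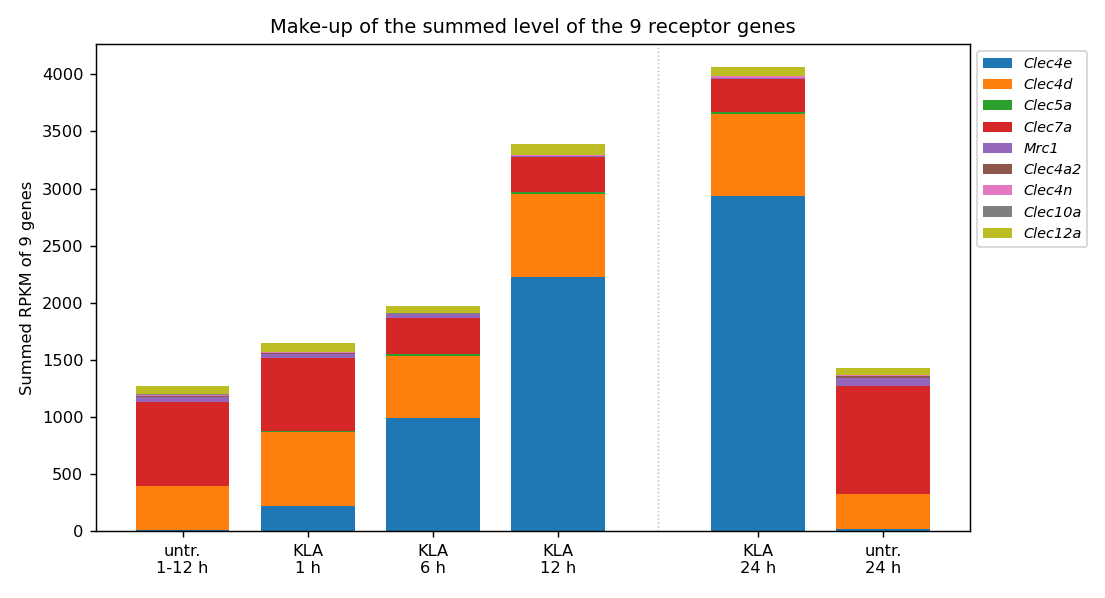
Summed RPKM of the 9 genes in each library, stacked by gene, with KLA 24 h and its untreated library at the right. The Clec4e part is 991 RPKM at 6 h and 2932 RPKM at 24 h of KLA, and the Clec7a part is largest in the untreated libraries.

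Receptors that lie side by side differed in direction. On build mm9 Clec4a2 (chr6:123073334-123094017, plus strand), Clec4n (chr6:123179861-123197042, plus), Clec4d (chr6:123212125-123225286, plus) and Clec4e (chr6:123231807-123239889, minus) belong to a cluster of 9 genes over 368 kb, 7 of them tested. Clec4d and Clec4e end towards each other without overlapping. Of the others in that cluster, Clec4a1 had 45.4 RPKM after 12 h of KLA, against 11.4 RPKM in untreated macrophages, with a log2 ratio of 1.91. Clec4a3 had 15.2 RPKM after 6 h, against 53.6 RPKM in untreated macrophages, with a log2 ratio of -1.76. Clec4b1 had at most 6 reads in a library. Clec12a (chr6:129300262-129315321, plus) and Clec7a (chr6:129411609-129422795, minus) belong to a further cluster, cut here from Clec2d to Olr1, of 11 genes over 327 kb, again with 7 tested. Olr1 (the oxidised LDL receptor LOX-1), 34.4 kb from Clec7a between start sites, had 59.6 RPKM after 1 h of KLA, against 0.154 RPKM (1 read) in untreated macrophages, with a log2 ratio of 5.71. Cd69, an early activation antigen, had 195 RPKM after 6 h, against 0.28 RPKM (1 read) in untreated macrophages, with a log2 ratio of 7.26. Clec7a, between genes with such ratios, was lower. The other 3 members lie elsewhere, Clec5a at chr6:40524897-40535804 (minus), Clec10a at chr11:69980125-69984338 (plus) and Mrc1 at chr2:14151041-14253650 (plus).

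**Figure D4:**
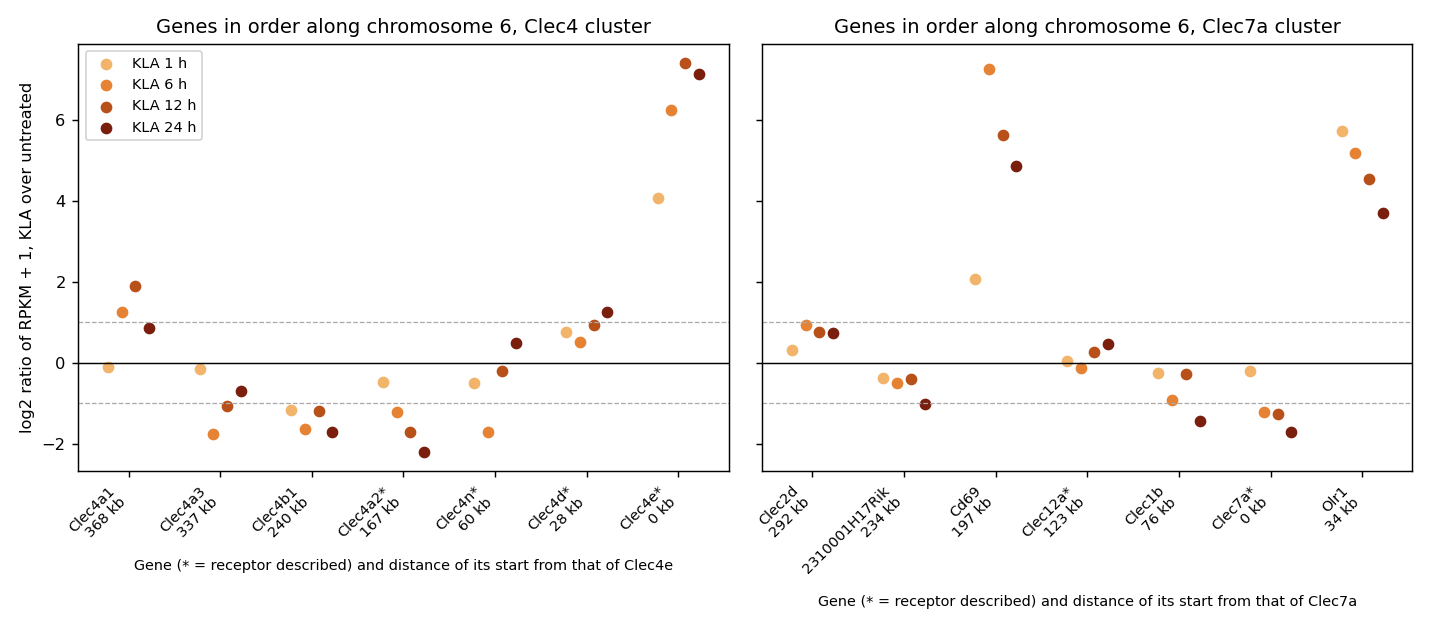
log2 ratio of RPKM + 1 (KLA over untreated) of the tested genes of the Clec4 cluster (left) and the Clec7a cluster (right), in order along chromosome 6, with the distance of each start site from that of Clec4e or Clec7a; asterisks mark the receptors described and dashed lines 2-fold. Clec4e and Clec4a1 at the ends of the first cluster are higher while Clec4a2 between them is lower, and in the second Cd69 and Olr1 are higher while Clec7a is lower.

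Promoter sequence was read for 7 of the 9 genes from RefSeq (GRCm38.p6, not the build of the files), as the 250 bases before the start of the gene. Those of the neighbours Clec4e and Clec4d, which differed widely in the size of their change, and of Clec7a and Mrc1, which were lower, are shown 5′ to 3′ with capitals at every match to a searched motif. They lie at chr6:123289872-123290121 (minus strand, Clec4e), chr6:123261857-123262106 (plus, Clec4d), chr6:129472780-129473029 (minus, Clec7a, the first of its pair of entries) and chr2:14229164-14229413 (plus, Mrc1).
Clec4e: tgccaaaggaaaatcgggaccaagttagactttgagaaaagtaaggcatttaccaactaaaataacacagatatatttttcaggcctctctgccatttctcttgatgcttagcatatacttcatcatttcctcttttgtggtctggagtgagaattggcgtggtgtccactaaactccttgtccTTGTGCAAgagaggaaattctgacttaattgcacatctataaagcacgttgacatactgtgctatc
Clec4d: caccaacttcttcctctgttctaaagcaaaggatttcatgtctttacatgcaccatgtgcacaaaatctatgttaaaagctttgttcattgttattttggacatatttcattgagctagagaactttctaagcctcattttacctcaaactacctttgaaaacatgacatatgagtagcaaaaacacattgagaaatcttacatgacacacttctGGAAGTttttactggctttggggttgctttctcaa
Clec7a: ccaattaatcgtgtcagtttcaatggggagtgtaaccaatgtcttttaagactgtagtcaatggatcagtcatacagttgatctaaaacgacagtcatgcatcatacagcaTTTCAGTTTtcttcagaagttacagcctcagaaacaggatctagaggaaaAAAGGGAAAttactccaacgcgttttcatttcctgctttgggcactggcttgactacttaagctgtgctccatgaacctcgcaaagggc
Mrc1: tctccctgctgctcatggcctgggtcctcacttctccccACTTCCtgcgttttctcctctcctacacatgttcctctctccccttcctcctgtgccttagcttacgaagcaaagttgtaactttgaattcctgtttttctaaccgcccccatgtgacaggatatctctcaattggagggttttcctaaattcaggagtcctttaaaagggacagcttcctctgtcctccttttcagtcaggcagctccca

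The motifs searched on both strands were PU.1 (GGAAGT), C/EBP (TTGCNNAA), kappa-B (GGANTTTCC), ISRE (AAANNGAAA), AP-1 (TGANTCA), the LXR direct repeat (AGGTCA, 4 bases, AGGTCA) and the sterol regulatory element (TCACNCCAC). The capitals in Clec4e are a C/EBP match on the minus strand, 66 to 59 bases before the start, and 9.55% of the 27025 promoters searched hold one. Clec12a holds a C/EBP match too, on both strands at 140 to 133 bases before the start, and an AP-1 match (6.87% of promoters). The capitals in Clec4d and Mrc1 are PU.1 matches, which Clec4a2 also holds, beside 20.0% of promoters. Clec7a holds a pair of ISRE matches and Clec4a2 1, beside 9.52% of promoters. None of the 7 windows holds these letters of kappa-B (1.05% of promoters), of the LXR direct repeat (0.0111%) or of the sterol regulatory element (1.04%), and Clec5a holds none of the 7 motifs. A match is a run of letters and not a bound site.

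In macrophages given GW3965, SREBP1 peaks had their centre within 10 kb of the start site in 5 of the 9 genes (Clec4a2, Clec4d, Clec5a, Clec7a and Clec12a), beside 59.2% of all genes tested. LXR peaks did so in all 9, beside 75.5%. The SREBP1 count lies near the share of all genes, and with 9 genes neither count sets the members apart. Peak heights are the authors' tag counts, scaled to 10000000 tags, and their fold over input. The tallest SREBP1 peak near a member lay 1080 bases into Clec4d (chr6:123213108-123213302, mm9), with 20.5 tags and 20.2 times the input. The others had 9.02 to 13.5 tags, with one centred 100 bases inside Clec5a (11.9 tags), one 388 bases before Clec12a (9.84 tags) and one 975 bases inside Clec7a (13.5 tags), while the median of that list was 11.1 tags.

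The title of the LXR library says GW3965 while its treatment label says control, so its treatment rests on the title and the file header. LXR peaks near the members ran over a wider range, with a median of 28.0 tags in the whole list. The tallest lay 9378 bases before Clec5a (78.7 tags, 261 times the input) and 9210 bases inside it (74.7 tags). A fold larger than the tag count rests on very few input tags, so its size is not fixed. The header names an input from KLA 24 h cells for this list, which is another treatment. Clec12a had one of 73.3 tags centred 85 bases after its start, and Clec4d had 4, of 16.0 to 53.3 tags. Clec4n had 1, of 53.3 tags, 2285 bases before its start. LXR peaks were centred close to the start of Clec7a (17 bases before, 29.3 tags), Clec4a2 (29 bases before, 33.3 tags), Clec10a (38 bases before, 17.3 tags) and Mrc1 (98 bases before, 25.3 tags). Clec4e, with the largest change after KLA, had 1 LXR peak, 3312 bases inside the gene, with 16.0 tags and 6.64 times the input, at rank 35148 of 40660 by score. The label of the SREBP1 sample gives 18 h of GW3965 and the header of the LXR list 5 h, so the lists differ in length of treatment. An SREBP1 and an LXR peak near the same member had centres within 1 peak width of each other once, before Clec4a2, 45 bases apart. No KLA peak list was used here, so these peaks describe macrophages given the LXR agonist and not the KLA time course.

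**Figure D5:**
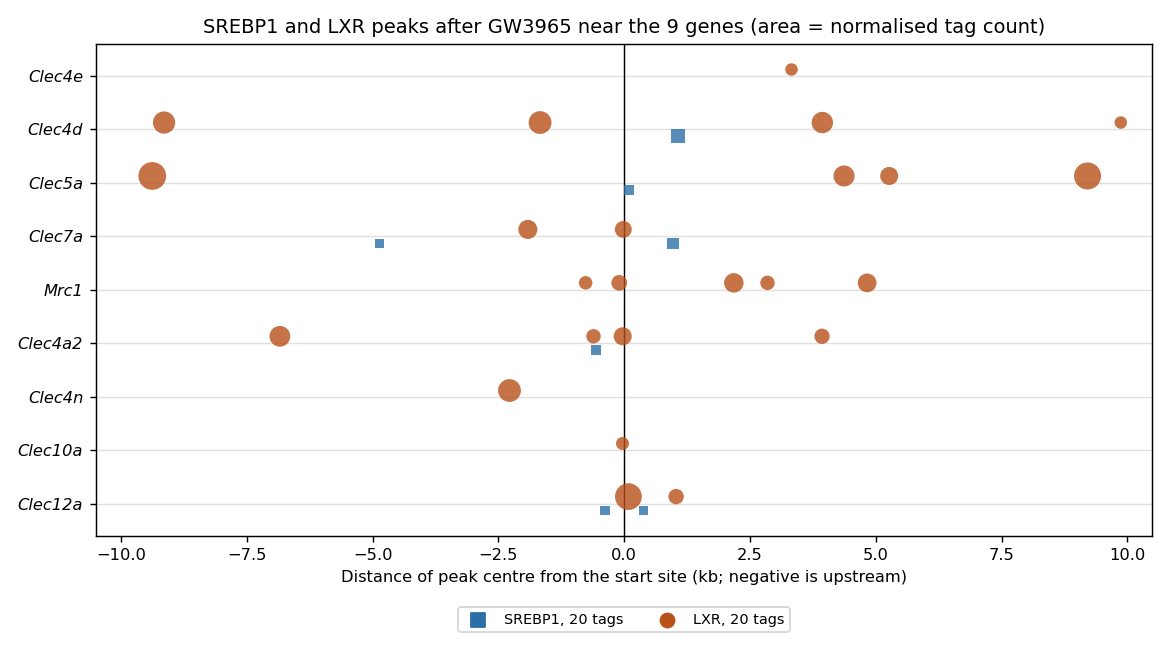
SREBP1 (squares) and LXR (circles) peak centres within 10 kb of the start site of each gene in GW3965-treated macrophages, by distance in the direction of transcription, with marker area in proportion to the authors' normalised tag count. Clec5a and Clec12a have the tallest LXR peaks, and Clec4e has 1 LXR peak of 16.0 tags and no SREBP1 peak.

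The adaptors and kinases of these receptors also changed unequally. Of 21 tested genes of that arm 4 were at least 2-fold higher at 24 h, beside 9.98% of all genes tested. Src, Malt1 and Vav1 were among them. At that time 3 were lower (Tyrobp, Vav3 and Tec), beside 10.6%. The median log2 ratio was -0.05, beside -0.09 over all genes tested. At 6 h 4 were higher, beside 9.35%, and 3 lower, beside 22.4%. At 12 h 4 were higher, beside 8.88%, and 6 lower, beside 16.3%. Fcer1g, the adaptor chain through which Clec4e, Clec4d and Clec4n signal, had 2463 RPKM in KLA 24 h macrophages, against 1279 RPKM in untreated 24 h macrophages (ratio 1.92, 1.83 to 2.03). Tyrobp, the adaptor of Clec5a, had 812 RPKM in KLA 24 h macrophages, against 2199 RPKM in untreated ones (ratio 0.369, 0.345 to 0.394). Per length, Fcer1g was at 3.03 times the level of Tyrobp in KLA 24 h macrophages (2.85 to 3.23), against 0.582 times in untreated ones (0.551 to 0.615). At 24 h Clec5a was thus higher where its adaptor was lower.

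Syk, the kinase that both adaptors recruit, had 67.8 RPKM in untreated macrophages, 82.6 RPKM after 1 h, 122 RPKM after 6 h and 119.9 RPKM after 12 h of KLA. At 24 h Syk had 90.0 RPKM in KLA macrophages, against 70.8 RPKM in untreated ones (ratio 1.27, 1.17 to 1.39), and it passed 2-fold at no time. Downstream, Malt1 was higher at all 4 times, with a plain ratio of 6.45 at 6 h (5.45 to 7.68), and Bcl10 at 1 h, with a log2 ratio of 1.21. Card9, which joins them in the complex below Syk, was lower at 6 h (0.328, 0.18 to 0.571), and its interval at 24 h held 1 (0.369 to 1.01). Of the Src family kinases, Src had a plain ratio of 10.9 (7.58 to 16.2) at 6 h, and Lyn had a log2 ratio of 1.36 then. Tec was lower at 6 h (0.136, 0.0966 to 0.188), and so were Nfatc1 at 6 h (log2 ratio -2.05) and Vav3 at 12 h (-1.71).

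Among 11 genes of inhibitory phosphatases and negative regulators, all tested, 4 were at least 2-fold higher and 1 lower at 6 h. Of all genes tested 9.35% were higher and 22.4% lower at that time. At 24 h 3 were higher, beside 9.98%, and 0 lower, beside 10.6%. The median log2 ratio was 0.17 then, beside -0.09 over all genes tested. Ptpn6 (SHP-1, which inhibitory lectins recruit) had 129 RPKM in KLA 24 h macrophages, against 63.4 RPKM in untreated ones. Siglece, an inhibitory sialic acid receptor, had 19.0 RPKM in KLA 24 h macrophages, against 0.209 RPKM in untreated ones. Siglece reached 1 RPKM in KLA libraries only, so the filter favoured its higher calls, which give no support of their own. Inpp5d (SHIP-1) had 4.15 RPKM after 6 h of KLA, against 19.2 RPKM in untreated macrophages, with a log2 ratio of -1.97. Tnfaip3 (A20) had a log2 ratio of 5.07 at 1 h, and Lilrb4 of 1.09 at 6 h.

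Of 38 other genes with C-type lectin domains, 17 were tested. At 24 h 5 of these were at least 2-fold higher (Ly75, Cd302, Olr1, Cd69 and Klrk1), beside 9.98% of all genes tested. In the other direction 5 were lower (Clec4b1, Clec1b, Clec2i, Cd93 and Thbd), beside 10.6%. Clec4b1 (0 against 4 reads, an interval that held 1) and Clec1b (3 against 12 reads) rested on few reads. The median log2 ratio was -0.37 against -0.09 over all genes. At 6 h 5 were higher, beside 9.35%, and 6 lower, beside 22.4%. At 12 h 6 were higher, beside 8.88%, and 7 lower, beside 16.3%. Cd302 had 221 RPKM in KLA 24 h macrophages, against 69.3 RPKM in untreated ones. Cd93, a receptor linked to clearance of dying cells, had 6.25 RPKM in KLA 24 h macrophages, against 96.7 RPKM in untreated ones. Thbd (thrombomodulin) had 0.302 RPKM in KLA 24 h macrophages, against 11.9 RPKM in untreated ones. Other log2 ratios were 2.77 for Klrk1 and -2.41 for Clec2i at 6 h, -1.54 for Colec12 at 12 h and 1.38 for Ly75 at 24 h. Both directions were thus found across the wider family, as they were among all genes tested.

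Mrc1 and Clec10a are often grouped with IL-4 induced genes. Of 13 tested genes of that kind 4 were at least 2-fold higher at 24 h (Ccl17, Ccl22, Il4ra and Tgm2) and 0 lower, with a median log2 ratio of 0.67. At 1 h 3 were higher and 0 lower, with a median of 0.18. At 6 h 6 were higher and 1 lower, with a median of 0.23. At 12 h 6 were higher and 0 lower, with a median of -0.45. Ccl17, Ccl24 and Socs2 reached 1 RPKM in KLA libraries only. The filter thus favoured their higher calls, which give no support of their own, and these genes also enter the medians. Over all genes tested the shares higher at 1, 6, 12 and 24 h were 3.65%, 9.35%, 8.88% and 9.98%. The shares lower were 4.09%, 22.4%, 16.3% and 10.6%, and the medians -0.16, -0.46, -0.32 and -0.09. Retnla, named here after its values were seen, had 13.0 RPKM after 12 h, against 26.6 RPKM in untreated macrophages. Chil3, named on the same ground, had 4.38 RPKM in KLA 24 h macrophages, against 7.79 RPKM in untreated ones. Both of these differences were short of 2-fold on the scale of RPKM with 1 added. Tgm2 (transglutaminase 2) had 144 RPKM in KLA 24 h macrophages, against 21.8 RPKM in untreated ones. The chemokine gene Ccl22 had 100.4 RPKM after 6 h of KLA, against 1.00 RPKM in untreated macrophages. Ccl17 had a log2 ratio of 4.12 and Ccl24 of 2.60 at 6 h. Arg1 (arginase 1) had 3.14 RPKM after 6 h of KLA, against 13.5 RPKM in untreated macrophages, and 16.0 RPKM in KLA 24 h macrophages, against 9.69 RPKM in untreated 24 h ones. Mgl2, the close relative of Clec10a, had at most 2 reads in a library.

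Of 14 transcription factors of macrophage and inflammatory control, all tested, 7 were at least 2-fold higher and 2 lower at 24 h. Of all genes tested 9.98% were higher and 10.6% lower at that time. The median log2 ratio was 0.95, beside -0.09 over all genes tested. Cebpb, whose product binds C/EBP motifs and is known in mouse macrophages as a factor upstream of Clec4e, had 514 RPKM after 1 h of KLA, against 191 RPKM in untreated macrophages. At 24 h Cebpb had 319 RPKM in KLA macrophages, against 118 RPKM in untreated ones. Cebpa had 7.36 RPKM after 6 h, against 78.6 RPKM in untreated macrophages. Pparg, a nuclear receptor of lipid handling and of the response to IL-4, had 64.1 RPKM in untreated macrophages, 70.2 RPKM after 1 h, 5.01 RPKM after 6 h and 2.77 RPKM after 12 h. Log2 ratios of others were 2.56 for Nfkb1 at 6 h, 1.53 for Relb and 1.06 for Rela at 1 h, 1.50 for Hif1a at 6 h, and 1.30 for Klf4 and 1.29 for Irf8 at 24 h.

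Genes whose course over the 6 libraries was most like that of a member were found among 7897 other genes with at least 20 reads on average, by the root mean square difference of centred log2 levels. For Clec4e they were Hcar2 (0.52), Cxcl3 (0.55) and H2-M2 (0.62), beside a range of 7.79 for Clec4e itself. For Mrc1 they included Sepp1 (0.22) and Lsp1 (0.28). For Clec7a they were Gng2 (0.06), Ago4 (0.08) and Man1c1 (0.10). For Clec4a2 they were Igfbp4 (0.10), Timp2 (0.12) and Hfe (0.13), and for Clec5a Dcbld2 (0.08), Zcchc6 (0.13) and Tbk1 (0.14). For Clec4d they were Itprip (0.10), Fam96b (0.13) and Elp5 (0.16), and for Clec12a Nol7 (0.05), Nudt9 (0.06) and Dnajc11 (0.07). For the low genes they were Sephs2 (0.13), Sumf2 (0.13) and Tuba4a (0.15) for Clec4n and Calm2 (0.09), Nkain1 (0.09) and Camk1 (0.10) for Clec10a. With at most 12 reads in a library, the course of Clec10a is itself loosely fixed. Its log2 ratio at 12 h was -2.12 with 1 added to RPKM and -1.08 with 3 added.

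Libraries held 2205187 to 2674826 reads, and 1883937 to 2309724 of these fell in the genes of the table. The macrophage genes Lyz2 and Cd68 were abundant throughout, with 3936 and 1619 RPKM in KLA 24 h macrophages, against 7040 and 1835 RPKM in untreated 24 h ones. Of 8 macrophage markers 3 were at least 2-fold higher (Cd14, Fcgr1 and Emr1) and 1 lower (Itgam) at 24 h. Of all genes tested 9.98% were higher and 10.6% lower at that time. The summed level of the 8 markers was 6534 RPKM in KLA 24 h macrophages, against 9237 RPKM in untreated 24 h ones. Several of the receptors are also made by neutrophils and dendritic cells, and in bulk RNA fewer cells of a type and less RNA per cell cannot be told apart. The summed level of 7 of 8 neutrophil markers (Ly6g was not matched) was 51.7, 72.8 and 110.3 RPKM at KLA 1, 6 and 12 h and 132 RPKM at KLA 24 h, against 51.5 and 53.2 RPKM in the untreated libraries. Most of this was S100a8, with 118 RPKM at KLA 24 h, against 45.5 RPKM untreated, and of the defining markers Mpo was listed at 0 in all 6 libraries while S100a9, Elane and Ngp had at most 1 read. Camp had 7 reads at KLA 12 h and at KLA 24 h and 0 elsewhere, and Csf3r had a log2 ratio of 1.32 at 12 h. The summed level of 6 dendritic cell markers was 72.9 RPKM at KLA 24 h, against 183 RPKM in untreated 24 h macrophages, and most of it was Itgax (63.5 RPKM at KLA 24 h, against 181 RPKM untreated). Ccr7, a dendritic cell marker that went the other way, had 8.9 RPKM at KLA 24 h, against 0.783 RPKM (4 reads) untreated, with a log2 ratio of 2.47. Flt3, Zbtb46, Xcr1 and Siglech had at most 3 reads in a library. Sums of 5 mast cell markers stayed at or below 0.832 RPKM and of 5 T and B cell markers at or below 6.38 RPKM. The sum of 4 eosinophil markers was 4.11, 2.69 and 1.53 RPKM at KLA 1, 6 and 12 h and 0.834 RPKM at KLA 24 h, against 5.72 and 7.23 RPKM in the untreated libraries. Siglec5 made up all of the untreated 24 h sum, with 0.311 RPKM (2 reads) at KLA 24 h, against 7.23 RPKM (45 reads) untreated, while the granule genes Epx and Prg2 were listed at 0 in all 6 libraries. The sum of 5 fibroblast and mesothelial markers was 172 RPKM at KLA 24 h, against 96.0 RPKM in untreated 24 h macrophages, and 82.8 to 102 RPKM in the other libraries. The part of such cells in the receptors' values was not tested.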

How the data were processed

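Values of 6 RNA libraries were used as deposited by the authors, in RPKM per transcript with transcript lengths on build mm9, per the file headers. The submitters' processing notes list Bowtie 0.12.7, STAR, HOMER and build mm9 with no roles. No label or header says if counting used strand. The 9 genes, the gene lists and the tests were chosen with earlier results of these data known.

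The reads behind each RPKM were recovered as whole multiples of the value of 1 read (99.97% of values above 0 came out whole within 0.01 read). They give 95% exact intervals (Poisson for a level, conditional binomial for a ratio), which cover counting error only. PCR copies could not be removed, so reads are not independent molecules. One transcript per symbol (of 33022 transcripts) with the highest mean RPKM was kept, and genes with at least 1 RPKM in at least 2 libraries were tested. A gene was called at 2-fold on log2 of RPKM + 1, a scale that understates the change of low genes. With 1 library per condition no test was run. A gene listed at 0 had no read assigned.

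Peaks are the authors' HOMER calls, per the file headers, at a false discovery rate of 0.001 and 4-fold over input and over the local 10000 bases, with the normalised tag count (a signal per 10000000 tags), the fold over input or local background (a ratio) and the findPeaks score as deposited. The SREBP1 list has 13984 peaks of 194 bases from 24395376 tags and the LXR list 40660 peaks of 184 bases from 7501248 tags. For the LXR library the title says GW3965 while its treatment label says control, and the header names an input from KLA 24 h cells. The SREBP1 label gives 18 h of GW3965 and the LXR header 5 h. A peak counted where its centre lay within 10 kb of the start of the kept transcript.

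Named from the lists were genes at least 2-fold apart at 1 or more times with at least 20 reads in a library, up to 12 a list by size. The 3 genes most like each member were named by the root mean square rule given in the report. Protein sequences and promoters of Clec4n and Clec10a were not used here. A few genes that these rules name are not reported here. Python 3.11.15 with numpy, pandas, scipy and matplotlib was used, and the ratio and window steps were tested on simulated data. Alternatives were other pseudocounts, rescaling, the other untreated library, no filter, the median over transcripts, other windows and peaks 8-fold over input; a call that also needs a counting interval off 1 was added after seeing the data.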

Additional observations from a re-analysis of the deposited data

How the results depend on the processing

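With 3 in place of 1 added to RPKM, 2 members were at least 2-fold lower at 6 h (Clec4n and Clec7a) and 1 was higher at 12 h (Clec4e). With libraries rescaled by the median ratio, 2 were lower at 6 h (Clec4n and Clec10a). Against the other untreated library, 2 were higher at 1 h, where Clec4d joined Clec4e. SREBP1 peaks lay within 50 kb of all 9 genes, beside 82.4% of genes tested. The other counts of members stayed within 1.5 times of those reported under the alternatives run. Of 216 log2 ratios of members recomputed, 184 moved by less than their counting interval, 32 moved by more and 0 called ones changed sign. Part of the 184 was fixed in advance, because leaving out the filter could move no ratio. The median over transcripts could not move Clec4e, Clec7a, Clec12a or Mrc1, with 1 transcript each. Wide intervals also let low genes pass, as Clec10a did at 12 h (-2.12, and -5.10 with 0.1 added). No paired analysis was possible because each condition had 1 library. Leaving out a library was not run for the same reason. Depth limits Clec10a and Clec4n, with at most 12 and 40 reads in a library.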
